A study of Mus musculus with 3 samples.

Results

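The genes of the NF-E2, BACH and small Maf transcription factors were examined for chromatin occupied by ETO2 in mesoderm with blood potential. The 7 genes were Nfe2, Nfe2l2, Bach1, Bach2, Mafk, Mafg and Maff, out of 22367 protein-coding genes in the mouse annotation (GENCODE, build mm9). A peak was assigned to one of them when its summit lay in the gene body or within 100 kb of it, or when the nearest protein-coding start site was that of the gene. This rule uses position alone. It gave 10 of the 3192 sites of the series, and they fell at 4 of the 7 genes: 3 at Nfe2, 4 at Nfe2l2, 1 at Bach2 and 2 at Mafk. Bach1, Mafg and Maff had none.

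ETO2 (encoded by Cbfa2t3) is a co-repressor without DNA-binding specificity of its own that is found in complexes with the blood factor SCL. It was mapped by chromatin immunoprecipitation (ChIP) and sequencing in FLK1+ mesodermal cells isolated from embryoid bodies, which are differentiating aggregates of embryonic stem (ES) cells. The ES cells were wild type and of strain C57Bl/6 X Sv129, the antibody was sc-9741x, and the labels gave the stage as day 4 whereas the design text of the series gave day 3.5. There were 2 ETO2 ChIP libraries, replicate 1 and replicate 2, which the design text ascribes to separate ES cell differentiations, and 1 input library. Expression was not measured in these samples, so the labelled cell type could not be checked against its markers, and an occupied site says nothing of whether its gene was active. FLK1 marks mesoderm with both blood and vessel potential, and a site in few cells and a weakly occupied site cannot be told apart.

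NF-E2 is a pair of basic leucine zipper proteins, a blood-restricted large subunit encoded by Nfe2 and a small Maf protein (encoded by Mafk, Mafg or Maff), and it is known for its part in platelet formation and in globin gene expression. NRF2, encoded by Nfe2l2, is the related large subunit that activates genes of the oxidative stress response, while BACH1 and BACH2 pair with the same small Maf proteins and repress many of the same target sequences. The small Maf proteins lack an activation domain, so that the partner sets whether a pair activates or represses. SCL complexes in blood cells are known to sit on an E-box next to a GATA motif, bound by SCL with an E protein and by a GATA factor.

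The strongest site called in both replicates at Nfe2 and at Mafk, and the single site at Bach2, are shown as the 100 bp centred on the replicate 1 summit. Sites were numbered along the direction of transcription. Sequences are from the plus strand of mm9, and capitals mark GATA motifs and the CTG that stands 8 to 10 bases from a GATA (on the reverse strand, GATA reads as TATC and CTG as CAG). The third Nfe2 site, added after its values were seen, is shown because it held the motif pair on each strand, with the GATA motifs facing each other.
Nfe2 site 2, 186 bp upstream of the Nfe2 start, chr15:103088970-103089069: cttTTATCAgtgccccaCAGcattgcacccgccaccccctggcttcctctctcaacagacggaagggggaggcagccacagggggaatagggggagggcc
Nfe2 site 3, intron of Nfe2, chr15:103082190-103082289: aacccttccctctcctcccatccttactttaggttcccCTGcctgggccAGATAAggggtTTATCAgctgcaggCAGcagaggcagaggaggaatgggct
Mafk site 1, 57.3 kb upstream of Mafk, chr5:140210087-140210186: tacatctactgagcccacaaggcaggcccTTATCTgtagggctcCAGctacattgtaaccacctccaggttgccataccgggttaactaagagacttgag
Bach2 site 1, intron of Bach2, chr4:32393481-32393580: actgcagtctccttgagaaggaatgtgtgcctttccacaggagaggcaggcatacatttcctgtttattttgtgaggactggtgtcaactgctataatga
The Bach2 window carries no capitals, since it held no GATA motif.

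Replicate 1 gave 2335 peaks, called by the authors against the input, and replicate 2 gave 1873 peaks, called without an input. Summits held between 12 and 206 fragments in replicate 1 (median 27) and between 18 and 236 in replicate 2 (median 35), as solved from the deposited fold enrichments and p-values. Peaks of the replicates that overlapped by at least 1 bp were counted as 1 site. Fold enrichment is the ratio of ChIP fragments, scaled to the control, to local background at the summit, with 1 added to each. Since the backgrounds were made differently in each list, fold enrichments were ranked within a list and not compared in level between lists. The peak names of both lists carry the same ChIP number, so whether the replicates were separate immunoprecipitations could not be settled, and each count of sites called in both replicates rests on this. No groups of samples were compared, so no test between groups was made, and intervals cover counting error only.

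At the 7 genes, 5 of the 10 sites were called in both replicates (50%, 95% Wilson interval 23.7 to 76.3), against 31.4% of all sites. The other 5 were called in replicate 1 alone, and no site was called in replicate 2 alone. The 31.4% also counts 858 sites called in replicate 2 alone, so it is not a like background for these 10. Among all sites with a replicate 1 peak, 1002 were called in both replicates and 1332 in replicate 1 alone. A site by the same rule was found at 27.8% of all protein-coding genes and at 4 of the 7 genes. A site called in both replicates was found at 11.1% of all protein-coding genes and at 3 of the 7, namely Nfe2, Nfe2l2 and Mafk. With 7 genes these shares are descriptions and were not tested. The windows around the 7 genes covered 1.85 Mb and held 5.40 sites per Mb, compared with 1.20 per Mb over the genome, a background that includes gene-poor sequence. Of the 10 sites, 6 had a start of one of these genes as their nearest protein-coding start, and 4 lay within 1 kb of such a start. A site called in both replicates within 1 kb of a start, found at only 0.25% of protein-coding genes (56 genes), was present at Nfe2 and at Nfe2l2.

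**Figure D1:**
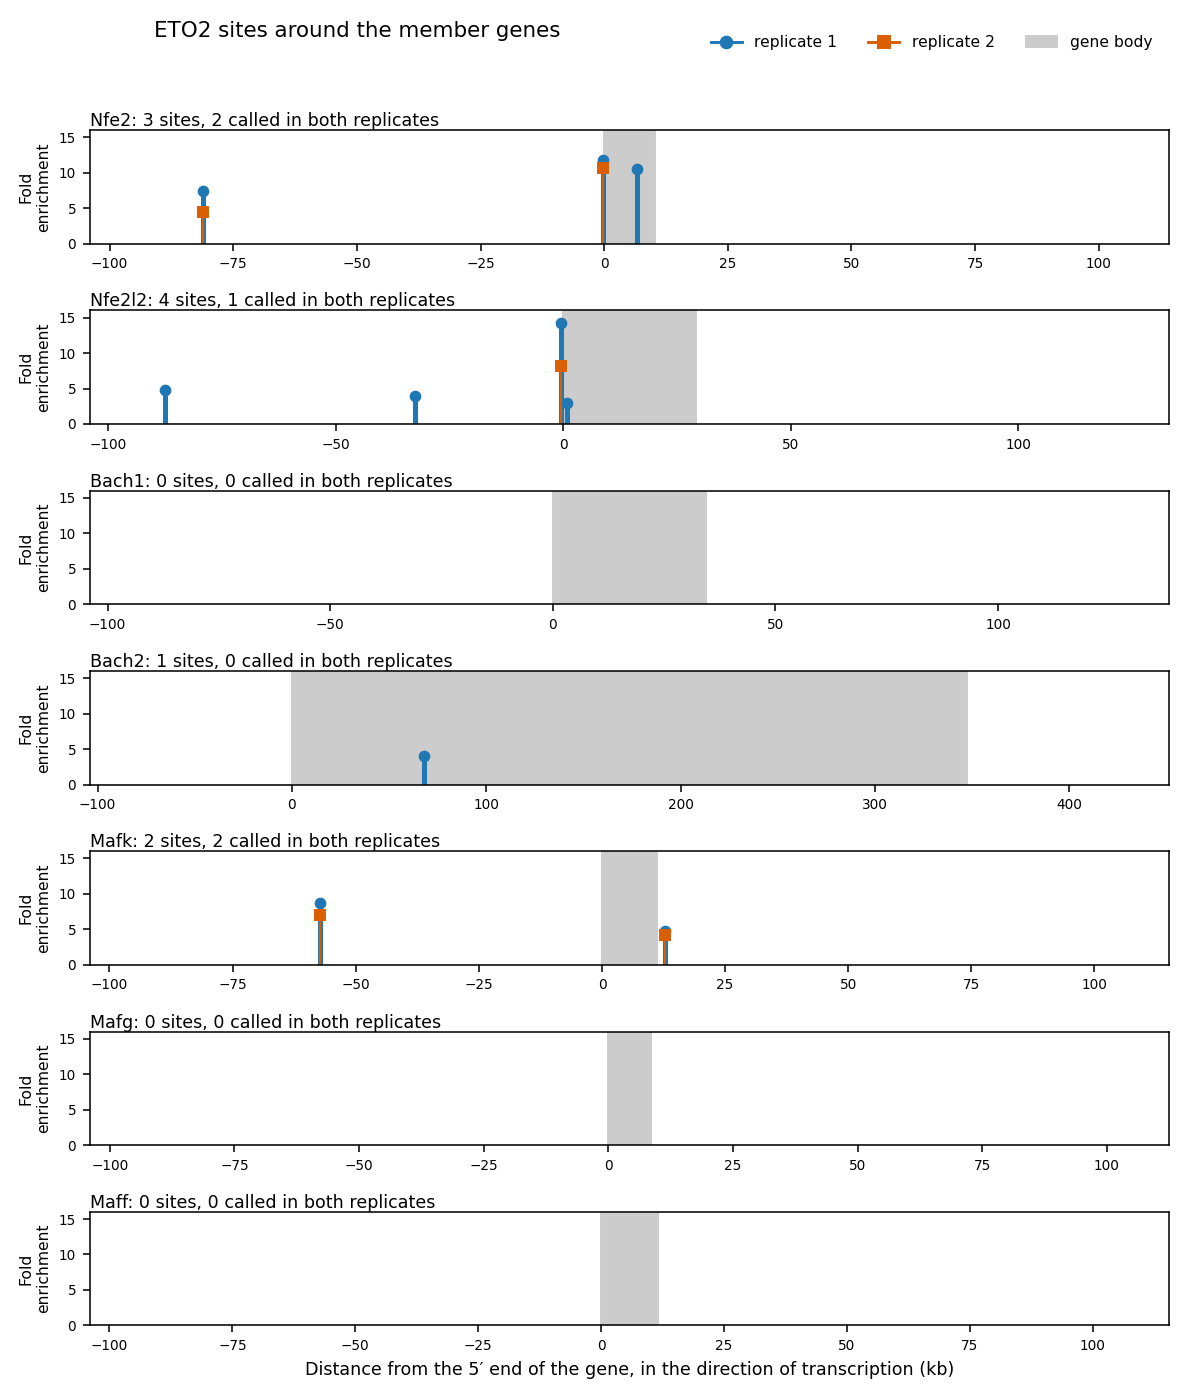
ETO2 sites around each of the 7 genes. The horizontal axis is the distance of the site from the 5′ end of the gene in kb, in the direction of transcription and with a different range in each panel, the vertical axis is the fold enrichment at the summit, the grey area is the gene body, and lines end in a circle for replicate 1 and a square for replicate 2. The highest values stand at the starts of Nfe2l2 (14.2 in replicate 1) and Nfe2 (11.8 in replicate 1), and the panels of Bach1, Mafg and Maff are empty.

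Nfe2 (chr15:103078643-103088834, minus strand) encodes the blood-restricted subunit of NF-E2. It had 3 sites, of which 2 were called in both replicates. The site at its 5′ start (Nfe2 site 2, chr15:103088832-103089175 in replicate 1 and chr15:103088851-103089181 in replicate 2) lay in intergenic sequence with its summit 186 bp upstream of the start. It had 60 fragments at the summit in replicate 1 (95% exact Poisson interval 45.8 to 77.2) and 83 in replicate 2 (66.1 to 103). Its fold enrichment was 11.8 in replicate 1, rank 148 of 2335 peaks, and 10.7 in replicate 2, rank 60 of 1873 peaks. The −log10 q was 55.9 and 53.5, and the summits stood 25 bp apart. Among the 10 sites, this one ranked highest in replicate 2 and behind the site at the Nfe2l2 start in replicate 1.

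Inside the gene, Nfe2 site 3 (chr15:103082087-103082422) lay in an intron, 6.59 kb downstream of the 5′ start and 122 bp upstream of an internal start site of Nfe2. It had 53 fragments (39.7 to 69.3), a fold enrichment of 10.5 (rank 217) and a −log10 q of 46.0 in replicate 1, close to the values of the site at the 5′ start in the same library. Replicate 2 had no peak there. Of the 272 replicate 1 peaks with at least 53 fragments, 263 (96.7%) were called in both replicates and 9 in replicate 1 alone, so a peak of this height was seldom missing from the other list. Nfe2 site 1 (chr15:103169749-103170259) lay 81.2 kb upstream of Nfe2, past starts of 3 other protein-coding genes. This site was in an intron of the zinc finger gene Zfp385a and 509 bp inside its start. It was called in both replicates, with fold enrichments of 7.38 (33 fragments, 22.7 to 46.3) and 4.49 (29 fragments, 19.4 to 41.6), ranks 533 and 1165.

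Nfe2l2 (chr2:75513570-75542698, minus strand), the gene of NRF2, had 4 sites, and 1 of them was called in both replicates. At a q-value limit of 1e-05 it had 2 sites, compared with 3 at Nfe2. That site (Nfe2l2 site 3, chr2:75542918-75543348) had its summit 438 bp upstream of the Nfe2l2 start, in an exon of the long non-coding RNA gene E030042O20Rik, which runs in the opposite direction. It had 105 fragments in replicate 1 (85.9 to 127) and 65 in replicate 2 (50.2 to 82.8). The fold enrichments were 14.2 (rank 87) and 8.12 (rank 183), with −log10 q of 107 and 34.4 and summits 9 bp apart. In replicate 1 no other site of the 7 genes had as many fragments.

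The other 3 Nfe2l2 sites were called in replicate 1 alone and were weak, with 16 to 19 fragments. Nfe2l2 site 1 lay 87.5 kb upstream (chr2:75630028-75630237, fold enrichment 4.73, −log10 q 7.21), and its nearest start was that of Agps, an enzyme of ether lipid synthesis, 40.1 kb away. Nfe2l2 site 2 lay 32.6 kb upstream (chr2:75575207-75575460, fold enrichment 3.94, −log10 q 4.46). Nfe2l2 site 4 lay in an intron 837 bp downstream of the start (chr2:75541804-75542067), with a fold enrichment of 3.0, rank 2272 of 2335, and a −log10 q of 3.0. Of the 770 replicate 1 peaks with at most 22 fragments, 97 (12.6%) were called in both replicates, so the absence of these weak sites from replicate 2 was the usual case.

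Mafk (chr5:140267467-140278607, plus strand) was the single small Maf gene with a site, and both of its sites were called in both replicates. Mafk site 1 (chr5:140210020-140210324) lay 57.3 kb upstream, with starts of 2 other protein-coding genes between it and Mafk. This site was in an intron of Micall2, a gene of an actin-associated protein, 1.35 kb upstream of a Micall2 start. It had 38 fragments (26.9 to 52.2) in replicate 1 and 46 (33.7 to 61.4) in replicate 2, fold enrichments of 8.66 (rank 355) and 7.05 (rank 318), and summits 59 bp apart. Mafk site 2 (chr5:140280112-140280443) lay 1.66 kb past the end of Mafk, in the untranslated region of the neighbouring gene Tmem184a. It had 45 fragments (32.8 to 60.2) and 26 (17.0 to 38.1), with fold enrichments of 4.72 (rank 1427) and 4.15 (rank 1384). Its replicate 1 fragments lay within the interval of site 1, and its lower fold enrichment went with a local background of 8.94 fragments, the highest of the 10 sites in that library. For Mafk, neither site lay near its start.

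Bach2 (chr4:32325779-32673083, plus strand), a repressor known from B cells, had 1 site, called in replicate 1 alone (chr4:32393397-32393626). It lay in an intron 67.8 kb downstream of the Bach2 start, and its nearest protein-coding start was that of D130062J21Rik, 62.8 kb away. It had 22 fragments (13.8 to 33.3), a fold enrichment of 4.09 (rank 1836) and a −log10 q of 6.91. Bach2 is the longest of the 7 genes, with a body of 347 kb against 8.48 to 34.4 kb for the others, so its search window was also the widest.

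**Figure D2:**
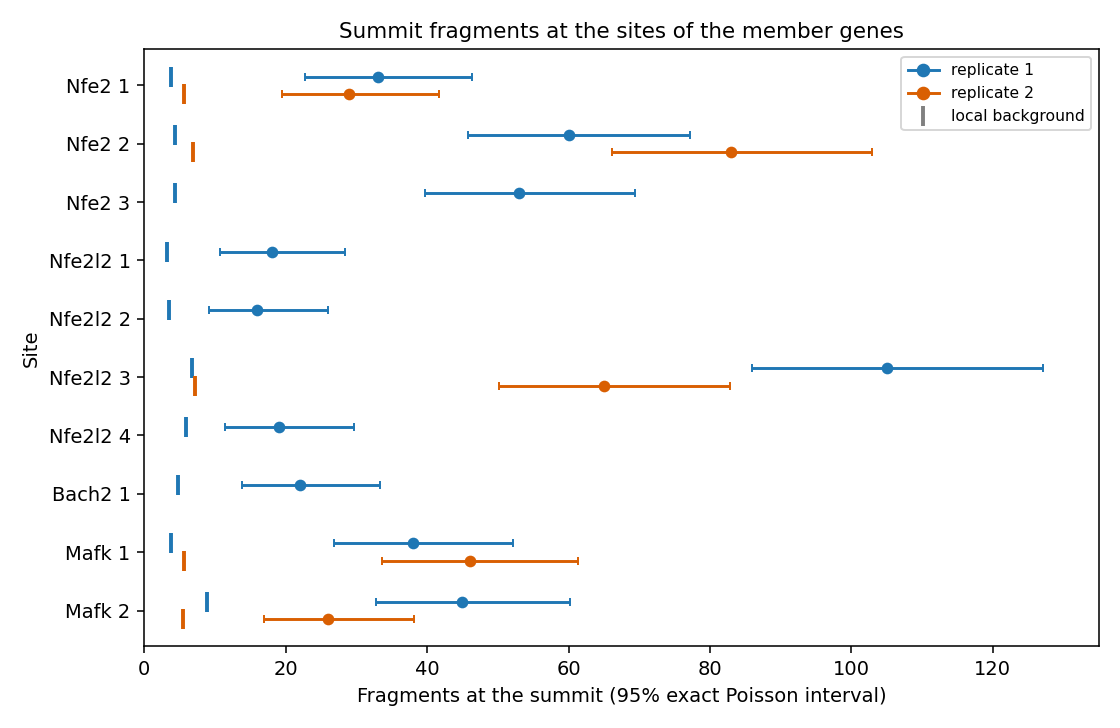
Fragments at the summit of the 10 sites. Each row is a site, circles are the solved fragments of replicate 1 and replicate 2 with 95% exact Poisson intervals, and short vertical bars are the local background in fragments. Nfe2l2 site 3 (105 in replicate 1) and Nfe2 site 2 (83 in replicate 2) stand highest, and the 4 sites with 16 to 22 fragments were called in replicate 1 alone.

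No site was listed for 3 genes. The site nearest to Bach1 (chr16:87699190-87733591), the haem-regulated repressor, lay 2095 kb away and was nearest to Tiam1. The site nearest to Mafg (chr11:120486431-120494914) lay 133 kb away by Slc25a10, outside the 100 kb limit of the rule, and was called in replicate 1 alone with a fold enrichment of 3.53. The site nearest to Maff (chr15:79177971-79189502) lay 188 kb away by Ddx17 and was called in both replicates, with a fold enrichment of 4.60 in replicate 1. The most distant sites within the limit were Nfe2l2 site 1 at 87.5 kb and Nfe2 site 1 at 81.2 kb. Within 100 kb, Bach1 had 1 other protein-coding gene, Maff 6 and Mafg 19. The genes with sites had 1 (Nfe2l2), 4 (Bach2), 4 (Mafk) and 7 (Nfe2) such neighbours. The lists hold peaks past the caller's threshold, so weaker occupancy at these genes was not detectable here.

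**Figure D3:**
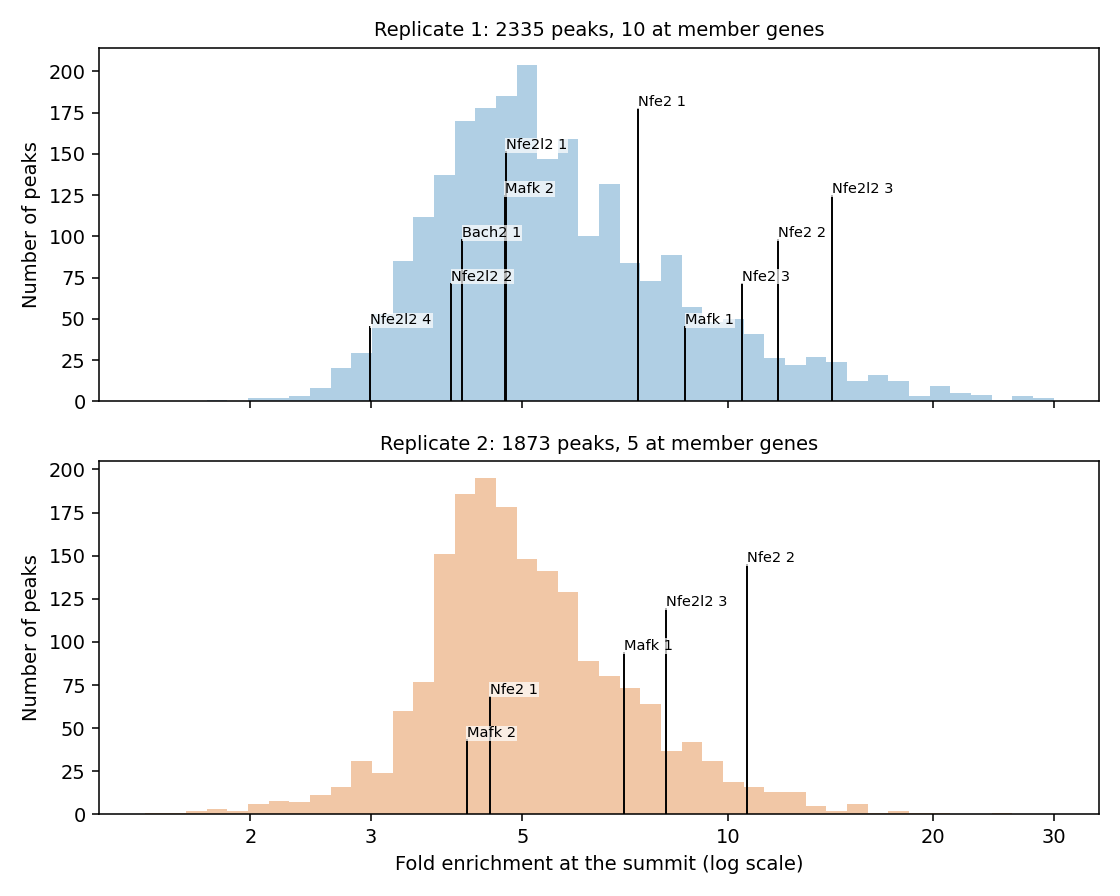
Fold enrichment at the summit of all peaks of replicate 1 (top) and replicate 2 (bottom). The horizontal axis is on a log scale, the vertical axis is the number of peaks, and black lines mark the peaks at the 7 genes. In replicate 1 the marked peaks run from 3.0 (Nfe2l2 site 4) to 14.2 (Nfe2l2 site 3), on both sides of the median of 5.24, and in replicate 2 from 4.15 (Mafk site 2) to 10.7 (Nfe2 site 2).

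To ask which sequences the sites share, the 100 bp at each summit were searched for motifs on either strand, as were windows of equal size placed 500 bp away on both sides. A GATA motif (GATA with A or T before it and A or G after it) was present in 7 of 10 summit windows (70%, Wilson interval 39.7 to 89.2) and in 3 of 20 flanking windows, against 54.4% of the summit windows of all sites. Of the 5 sites called in both replicates 4 held it, compared with 72.5% of all such sites. A CTG followed by 8 to 10 bases and GATA on the same strand was present in 5 of 10 summit windows (50%, Wilson interval 23.7 to 76.3) and in 0 of 20 flanks, against 24% over all sites. This spacing was chosen with earlier results of these data known, so its excess at summits over flanks is not independent support. Of the 5 sites called in both replicates 3 held this pair, compared with 36.7% of all such sites. Over the 10 summit windows, the spacing was 9 bases in 5 of the pairs and 10 bases at Mafk site 1. Control strings with the letters of the GATA motif rearranged (AATAG or GATAG, with A or T after it) were in 0 of 10 summit windows, 3 of 20 flanks and 13.9% of all summit windows. The GATAG strings still contain GATA, so this control is not free of the motif core.

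At Nfe2 all 3 sites carried the pair, always at a spacing of 9 bases. At site 2, by the start, the GATA motif was centred 44.5 bp from the replicate 1 summit and 19.5 bp from the replicate 2 summit. At site 1 it was again 44.5 bp from the replicate 1 summit, and 14.5 bp from that of replicate 2. At site 3, of which the sequence is printed above, 2 pairs stood on opposite strands with their GATA motifs centred 1.5 and 12.5 bp from the summit, and a CAGCTG E-box overlapped the second of them by 2 bases. The 24 bases with the pair at Nfe2 site 1 (chr15:103169956-103169979 on the plus strand, chosen after its values were seen) allow comparison with the pair of site 2 above. Those around the GATA motif at Mafk site 2 come from a replicate 1 summit window without a pair.
Nfe2 site 1: cccTTATCTtcacccgtCAGgttc
Mafk site 2: ccagaagtcAGATAAgtaggtgtg
Mafk site 1 held AGATAA 18.5 bp from the replicate 1 summit and 77.5 bp from that of replicate 2, and Mafk site 2 held it 17.5 and 13.5 bp away. The replicate 1 peaks of Mafk site 1 (305 bp) and Mafk site 2 (332 bp) each held 3 GATA motifs and 1 pair. In 100 bp windows on the replicate 2 summits, both sites held a GATA motif, but only Mafk site 2 held a pair. Which Mafk site has the pair thus depended on the summit used.

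Nfe2l2 differed from Nfe2 in what lay under its summits. The strong site at its start had no GATA motif in the 100 bp window, where a CAGTTG E-box 27.5 bp from the summit was the only match to the motifs searched. The nearest GATA motif in its 431 bp replicate 1 peak was centred 62.5 bp from the summit. The intronic site 4 had no match at all in its window, of which 70% was G or C, and no GATA motif anywhere in its 264 bp peak. Both distal sites had GATA motifs, a TGATAG with a CTG pair at site 1 and AGATAA on each strand without a pair at site 2. Bach2 site 1 had no GATA motif in its window or elsewhere in its 230 bp peak, and held a CAACTG E-box and 2 copies of AGGAA, the core of the motif of ETS factors.

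**Figure D4:**
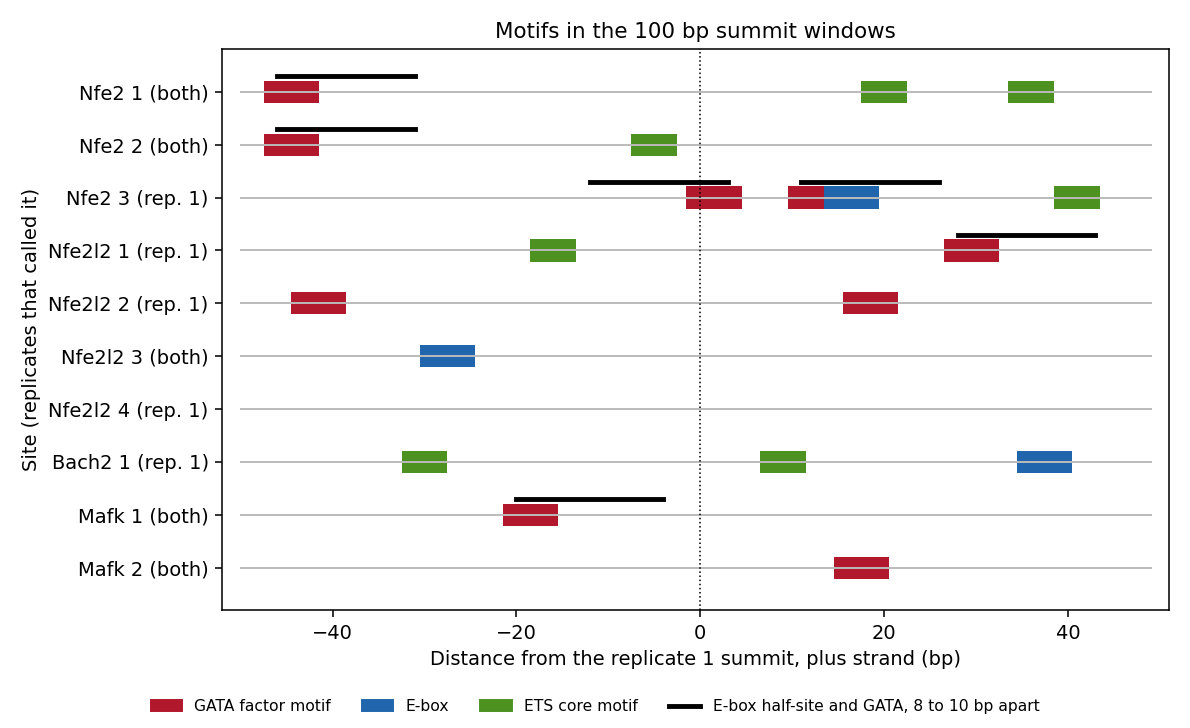
Motifs in the 100 bp summit windows of the 10 sites. The horizontal axis is the distance from the replicate 1 summit in bp on the plus strand, each row is a site with the replicates that called it, coloured boxes are motif matches, and black lines span a CTG and a GATA at a spacing of 8 to 10 bp. All 3 Nfe2 sites have a black line, and the window of Nfe2l2 site 3, at the Nfe2l2 start, has only an E-box.

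The motifs that these factors bind themselves were not found in the summit windows. TGANTCA, the core of the NF-E2 and Maf recognition element, and TGACNNNGC, the core of the antioxidant response element, were each in 0 of 10 windows (upper Wilson limit 27.8%), and 6.05% of all summit windows held one or the other. At that share, 10 windows are too few for an absence to be read as a difference. In the wider replicate 1 peaks, TGACNNNGC was found once at Nfe2l2 site 3 and once at Nfe2l2 site 4. E-boxes (CANNTG) were in 3 of 10 summit windows and 6 of 20 flanks, against 45.1% of all summit windows. AGGAA was in 5 of 10 windows and 5 of 20 flanks, against 41.4%. TGTGGT, the core of the RUNX motif, was in 1 of 10 windows, at Nfe2 site 1, and in 5 of 20 flanks, against 10.6% of all summit windows. All 24-mers of the 10 windows occurred once in the genome, whereas 95.5% of the replicate 1 and 68.8% of the replicate 2 windows had at least 80% of their 24-mers unique.

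Motifs were also counted in the promoters of the 7 genes, from 250 bp upstream to 50 bp downstream of each start in the annotation. A GATA motif was in the promoter windows of 5 of 10 Nfe2 starts, some of which overlap, and the pair in 3 of 10, compared with 25.5% and 5.73% of 46015 protein-coding starts. These pairs were the ones already described at Nfe2 site 2 and Nfe2 site 3, the latter covered from starts 11 bp apart. The promoter count of pairs at Nfe2 therefore repeats those sites and adds no separate sequence. The single Nfe2l2 start had neither the GATA motif nor the pair. The Bach1 start held a GATA motif although no ETO2 site was listed there, and so did 1 of 4 starts of Bach2 and 1 of 4 of Mafg. TGACNNNGC was in both Mafk starts and in 2 of 4 Mafg starts, against 13% of all starts. Both starts of Maff lacked the GATA motif and both NF-E2 family cores. A match is a run of letters and not a measured binding site.

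Related genes were read by the same rule. Of 6 other CNC and large Maf genes, 3 had a site, and each of these had one called in both replicates. Among them were Nfe2l3, an NRF-type factor, 27.1 kb from the gene and nearest to the start of Cbx3 (fold enrichment 8.16 and 4.85), and Maf, a large Maf factor, assigned by nearest start from 384 kb away (6.66 and 4.22). Nfe2l1, Mafa and Nrl had none. Of 12 genes of the NRF2 pathway, 6 had a site and 2 had one called in both replicates. These were Keap1, whose protein holds NRF2 in check, at 74.3 kb (3.62 and 6.93), and Ftl1, a ferritin subunit, at 65.1 kb in the coding sequence of Ppp1r15a (4.89 and 5.95). For neither was the site closer to the listed gene's start than to another gene's, as Ap1m2 and Ppp1r15a had the nearest starts. The shares over all protein-coding genes were the 27.8% and 11.1% given above.

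Of 9 genes known as NF-E2 targets in platelets and red cells, 5 had a site, each with one called in both replicates. Over all protein-coding genes, 27.8% had a site and 11.1% had one called in both replicates. Tbxas1, the thromboxane synthase, had it in its own intron (9.92 and 5.43). Alas2, the first enzyme of haem synthesis in red cells, had it in an intron as well, where the gene overlaps Apex2 (12.8 and 5.65). Hbb-b1, Hbb-bh1 and Hbb-y are neighbours in the beta-globin cluster and shared the same 2 sites, so they count as 1 locus. The stronger of these had fold enrichments of 20.1 and 15.0, lay 57.0 kb from Hbb-y and 82.1 kb from Hbb-b1, and was nearest to the start of the olfactory receptor gene Olfr65. Tubb1, Rab27b and Fech had no site. The fold enrichments at Alas2 and at the globin locus were above that of Nfe2 site 2 in replicate 1, and in replicate 2 that of Alas2 was below it.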

How the data were processed

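ETO2 ChIP-seq of FLK1+ cells was analysed from the deposited peak lists of 2 ChIP libraries and a list of regions of the whole series, which overlapped all 10 sites. Per the submitters' processing notes, the authors used Trim Galore, Bowtie, SAMtools, bedtools and MACS2 2.0.10 with build mm9. They called peaks in each replicate separately, replicate 1 against the input and replicate 2 without one. The deposited values of a peak are a score, a fold enrichment (ratio) and −log10 of the p- and q-value, all as given by the authors. The caller's scaling sets the fold enrichment, so the replicates were not compared in level.

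Summit fragments and local background were solved from fold enrichment and p-value under a Poisson model, with a ChIP-to-input scale of 1.34 in replicate 1. This gave whole fragments for 100% of peaks, and recovered 100% of the fragments of 494 and 483 simulated peaks tested. The simulated peaks were drawn from the same model and did not span the full range of fragments. Their recovery tests the solving and not whether the model holds. Chromosome names of the lists were all present in the mm9 reference. Python 3.11.15 with numpy 2.4.6, pandas 2.3.3, scipy 1.17.1 and matplotlib 3.10.9 was used. All 7 genes were named with every site accounted for. Sequences were printed for the strongest site called in both replicates of each gene, or else the site with the highest −log10 q, and additions are marked in the text. Some items, among them 1 of these sequences and genes of the other lists that stay in the counts, are not reported here. Of the other lists, genes with a site called in both replicates were named, as were the genes with the nearest start. Motif spacing, genes and lists were chosen with earlier results of these data known. The alternatives tried were other distances, overlaps, windows, summits and q-value limits. The input library and read totals were not analysed here.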

Additional observations from a re-analysis of the deposited data

How the results depend on the processing

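The alternatives covered distance limits, start sites, overlap, q-value, summit and window. Of 45 alternative values, 36 were within 1.5 times the reported value. Some of these could not move. All 10 sites are replicate 1 peaks, so leaving out replicate 2 removes none, and a count of 0 stays 0 under a narrower window or a stricter q-value. The number of genes with a site called in both replicates was 3 under all 8 alternatives tried. The total of 10 sites fell to 6 when a site had to be nearest to the gene's start, and ranged from 5 to 10 when a replicate was left out. It was 5 without replicate 1, since the sites of replicate 2 all overlap those of replicate 1. The 5 sites called in both replicates became 3 at limits of 50 kb and 20 kb and 3 by nearest start. They became 4 when the overlap had to cover at least 50% of each peak, and stayed 5 with summits at most 100 bp apart. The 7 sites with a GATA motif became 4 in a 50 bp window, and ranged from 4 to 7 with a replicate left out. The 5 sites with a pair became 2 in a 50 bp window, and ranged from 3 to 5 with a replicate left out. The count of NF-E2 family motifs was 0 throughout. The strongest site of each gene kept its place by −log10 p. Without replicate 1, Bach2 had no site. Agreement between replicates has no value when one is left out. No paired analysis was possible because only 1 group has replicates. Of replicate 1 peaks with at most 22 fragments, 12.6% were called in both replicates. The lowest summit listed held 12 fragments in replicate 1 and 18 in replicate 2, and the part of depth in this was not tested. With 2 libraries called against different backgrounds, spread between replicates was not measured for any fold enrichment.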
